A study of Mus musculus with 12 samples.

Results

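The data described here are the effect of cisplatin on the kidney transcriptome of mice that all received PCN. They come from the 3 cisplatin+PCN libraries and the 3 PCN libraries of a series of 12 libraries in 4 groups, chosen by their titles. Of the 52636 genes in the deposited table, 12821 reached an FPKM (a read level scaled for gene length and library size) of at least 1 in at least 3 of these 6 libraries, and these were tested. The gene just inside this minimum had a third-highest FPKM of 1 and the gene just outside it one of 0.9999. All mice were male wild-type C57BL/6 animals, 8 weeks old, and kidney RNA was sequenced. PCN (pregnenolone carbonitrile) was given by mouth at 40 mg/kg each day, for 4 days before and 3 days after the day of the injection. The cisplatin+PCN mice also received 1 intraperitoneal dose of 20 mg/kg cisplatin, and the PCN mice received saline in its place. Tissue was taken 4 days after the injection. The control group received corn oil and saline, and the cisplatin group corn oil and the same dose of cisplatin. The treatment text names the cisplatin group both among the PCN-pretreated and among the oil-pretreated mice, so the groups are those of the titles. Each group held between 6 and 8 animals, of which 3 libraries were deposited. Whether the 3 libraries of a group are 3 separate animals is not said in the labels; p-values here therefore weigh changes against the spread between libraries, which may be technical.

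Cisplatin is a platinum drug that binds DNA. In the kidney it is taken up mainly by cells of the proximal tubule, the segment that reabsorbs most of the filtered phosphate, amino acids and protein, and a toxic dose injures those cells. DNA damage activates the transcription factor p53, and injured tubules lose transport genes while they switch on repair and inflammatory genes. PCN is a steroid that activates PXR (the pregnane X receptor, gene Nr1i2), a nuclear receptor known for inducing drug-metabolising enzymes and exporters in liver and gut. Since both groups received PCN, the comparison holds the drug constant and asks what cisplatin changed in its presence.

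The 6 libraries held between 20377861 and 26394861 reads assigned to genes, so an FPKM of 1 stood for 19.6 to 25.5 reads per kilobase of gene. Mitochondrially encoded genes took 9.52% to 10% of reads in PCN libraries and 6.34% to 7.81% in cisplatin+PCN libraries. Kap, a kidney protein gene under androgen control, took 1.87% to 2.11% of reads in PCN libraries, against 0.519%, 0.23% and 0.244% in cisplatin+PCN replicates 1, 2 and 3. FPKM are shares of a library, so these shifts in the most abundant transcripts move with the group; their part in the results was not tested beyond the rescaling alternatives of the closing section. Markers of kidney were detected in both groups, from Slc34a1, Lrp2 and Miox of the proximal tubule to Umod and Slc12a1 of the thick ascending limb, Slc12a3 and Pvalb of the distal convoluted tubule, Aqp2 and Atp6v1b1 of the collecting duct, Nphs1 of podocytes and Pecam1 and Kdr of endothelium. Of these markers, Pvalb was under 1 FPKM in every cisplatin+PCN library, so its detection there was near the floor. In bulk RNA, fewer cells of a type and less RNA per cell cannot be told apart.

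Cisplatin changed the level of a large part of the transcriptome under PCN. In limma's two-sided test on log2(FPKM + 1), with p adjusted by Benjamini and Hochberg and a threshold of 0.05, 5984 of 12821 genes passed (46.7%), of which 2993 were higher (23.3%) and 2991 lower (23.3%) in cisplatin+PCN. A log2 change of at least 1 was passed by 595 genes upward (4.64%) and 593 downward (4.63%), and one of at least 3 by 40 upward and 31 downward. Of all genes tested, 7677 (59.9%) had groups that did not overlap, and 5970 of these passed. The share of called genes that were higher was 47.9% to 52.7% under the 3 rescalings, while limma-voom on the recovered reads, where the median change of all genes was 0.1 on the log2 scale, called 5876 genes, 60.6% of them higher. Protein-coding genes made up 11416 of the tested genes, and 2794 of them rose and 2691 fell. Among 201 lincRNA genes 30 rose and 60 fell, and among 195 antisense RNA genes 28 rose and 68 fell. No label says if the libraries are stranded, and reads of antisense genes cannot be told apart from those of genes they overlap.

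The largest increase was in Lcn2 (ENSMUSG00000026822, chromosome 2, 32384633 to 32388252, GRCm38), which encodes the iron-siderophore carrier NGAL. Its FPKM was 0.766, 1.13 and 1.22 in the PCN libraries and 384, 696 and 384 in the cisplatin+PCN libraries. The lowest cisplatin+PCN value was far above the highest PCN value, and Lcn2 rose by 7.85 ± 0.24 (SE) on the log2 scale (limma, adjusted p = 1.32e-05). Cdkn1a (ENSMUSG00000023067, chromosome 17, 29090979 to 29100722), the p53 target p21 that stops the cell cycle, went from 2.67, 2.25 and 2.14 FPKM to 177, 283 and 241. It rose by 6.10 ± 0.17 (limma, adjusted p = 1.05e-05), and its group means of 2.35 and 234 FPKM differed 99.2-fold. Havcr1 (ENSMUSG00000040405, chromosome 11, 46735080 to 46779578), which encodes the tubular injury marker KIM-1, was at 0.889, 0.97 and 0.821 FPKM in PCN and at 22.8, 321 and 262 FPKM in cisplatin+PCN. Replicate 1 stood far below the other cisplatin+PCN libraries here, so that the change of 6.06 ± 0.94 (limma, adjusted p = 0.00286) was 7.26 without cisplatin+PCN replicate 1 and 5.38 without replicate 2. Krt20, a keratin of injured epithelium, showed the same order of libraries, with 0.635, 0.291 and 0.216 FPKM in PCN and 18.8, 143 and 90.2 in cisplatin+PCN. Krt20 rose by 5.54 ± 0.68 (limma, adjusted p = 0.00121), by 6.39 without cisplatin+PCN replicate 1 and by 4.96 without replicate 2.

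**Figure D1:**
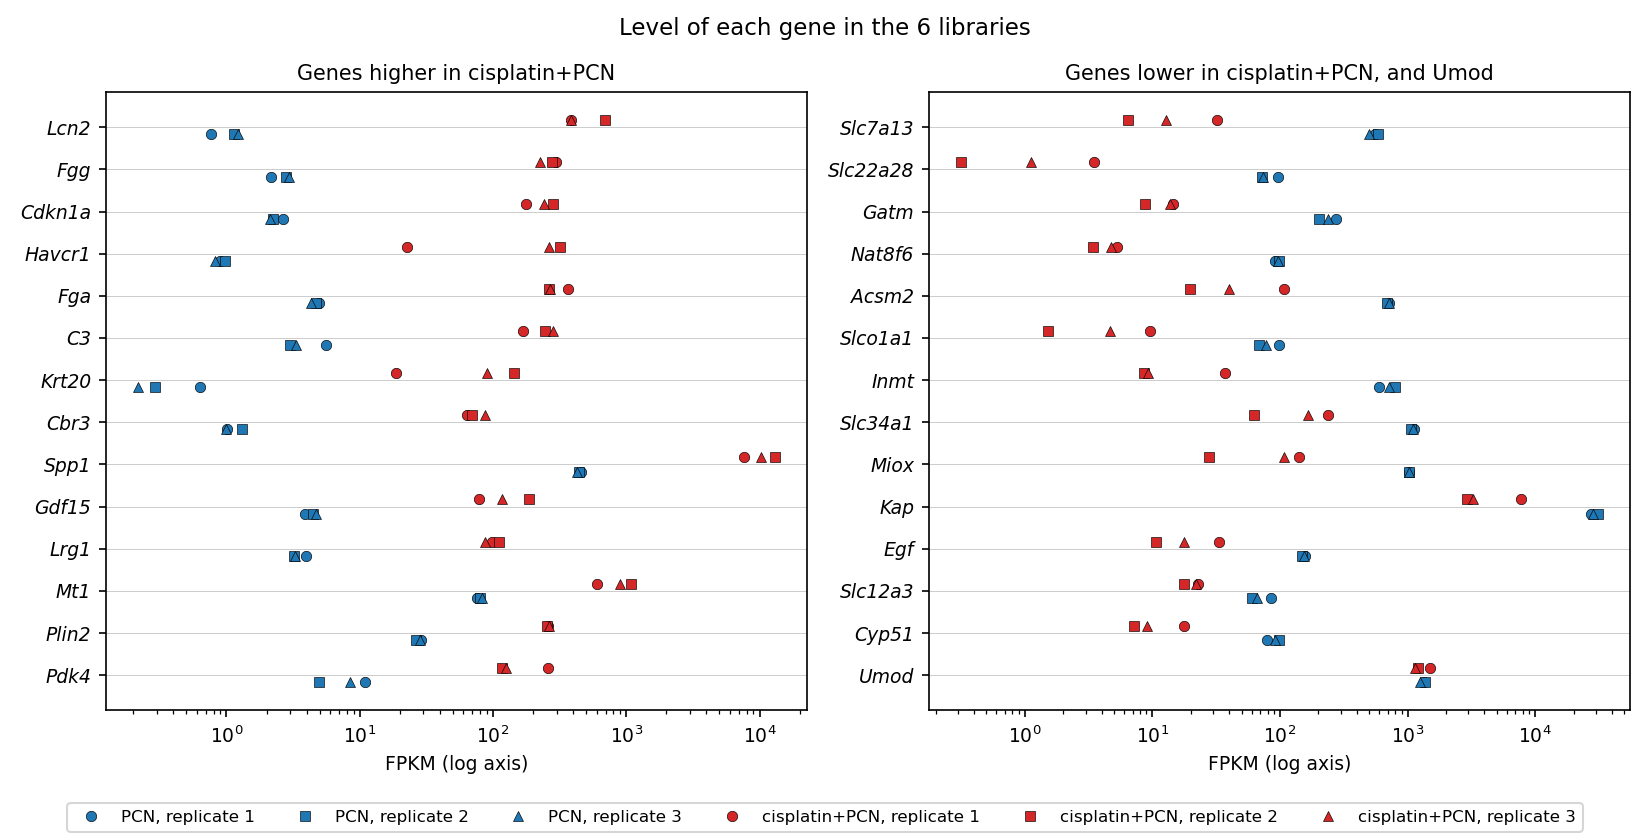
FPKM on a log axis (x) of 28 genes in each of the 6 libraries, where colour gives the group and marker shape the replicate. In the left panel every cisplatin+PCN library lies above every PCN library, with replicate 1 lowest for Havcr1 (22.8 FPKM) and Krt20 (18.8 FPKM), and in the right panel every gene but Umod is lower in all cisplatin+PCN libraries.

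The 3 fibrinogen chains, which together form the clotting protein secreted mainly by liver and which injured kidney tubules can also express, rose with small spread between libraries. Fgg (ENSMUSG00000033860, chromosome 3, 83007724 to 83015049) was at 2.17, 2.8 and 2.96 FPKM in PCN and at 295, 275 and 227 FPKM in cisplatin+PCN. Fga (ENSMUSG00000028001, chromosome 3, 83026076 to 83033627) went from 4.92, 4.69 and 4.29 to 364, 264 and 268 FPKM, and Fgb (ENSMUSG00000033831, chromosome 3, 83040141 to 83049863) from 0.229, 0.254 and 0.304 to 19, 24.4 and 19.2 FPKM. None of the groups overlapped, and the changes were 6.19 ± 0.13 for Fgg, 5.72 ± 0.14 for Fga and 4.10 ± 0.10 for Fgb (limma, adjusted p from 5.39e-06 to 5.49e-06). Alb, the albumin gene of hepatocytes, was at 2.09, 2.3 and 3.61 FPKM in PCN and at 1.61, 0.671 and 0.624 in cisplatin+PCN. Stat3, the transcription factor through which IL-6 type cytokines induce fibrinogen in liver, rose by 1.85 ± 0.08 (limma, adjusted p = 3.10e-05), from 7.59 to 8.57 FPKM in PCN to between 29.7 and 33.8 FPKM in cisplatin+PCN.

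The neighbouring genes lie within 1 stretch of chromosome 3, and the 250 bases before each RefSeq start site were searched and are shown because the 3 chains moved together. They are from RefSeq on GRCm38.p6, 5′ to 3′ along each gene's own strand, with matches to the STAT motif TTCNNNGAA in capitals (both strands were searched, and the motif is its own reverse complement). The regions are chr3:83007474-83007723 on the plus strand for Fgg, chr3:83025903-83026075 on the plus strand for Fga and chr3:83049864-83050113 on the minus strand for Fgb. RefSeq's start site for Fga lies 77 bases inside the gene as the deposited table places it, and those 77 bases of its window are not shown. 
Fgg: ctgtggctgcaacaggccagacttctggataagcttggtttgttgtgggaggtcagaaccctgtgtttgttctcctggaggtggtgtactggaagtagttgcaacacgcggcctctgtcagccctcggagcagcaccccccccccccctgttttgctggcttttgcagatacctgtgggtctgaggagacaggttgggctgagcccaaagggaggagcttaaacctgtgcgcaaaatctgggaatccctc
Fga: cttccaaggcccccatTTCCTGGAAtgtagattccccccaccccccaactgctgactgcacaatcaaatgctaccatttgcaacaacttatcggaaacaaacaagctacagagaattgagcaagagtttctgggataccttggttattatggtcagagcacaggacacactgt
Fgb: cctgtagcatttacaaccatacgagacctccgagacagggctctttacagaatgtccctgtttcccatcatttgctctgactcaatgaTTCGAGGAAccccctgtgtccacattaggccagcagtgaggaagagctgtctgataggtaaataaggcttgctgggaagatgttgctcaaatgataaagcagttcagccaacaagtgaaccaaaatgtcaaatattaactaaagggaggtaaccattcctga
Fga held 1 match, which began 234 bases before the start site, and Fgb held 1 match, 162 bases before it. Fgg held none in this window. The motif was present in 2291 of 32536 promoter windows of this length (7.04%). A match is a description of the letters and not of binding.

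Of 27 tested acute phase, complement and coagulation genes (35 listed, the 3 fibrinogen chains and Lcn2 among them), 19 rose, 1 fell and 7 did not pass, with a median change of 1.08 against about 0 for all genes tested. C3 (the central complement component) went from 5.59, 3 and 3.33 to 167, 245 and 281 FPKM and rose by 5.55 ± 0.25 (limma, adjusted p = 4.08e-05). Lrg1, a leucine-rich acute phase glycoprotein, went from 3.95, 3.24 and 3.29 to 98.6, 111 and 87.7 FPKM. Serpina3n, a protease inhibitor, was at most 0.359 FPKM in each PCN library and at 10.9, 25.4 and 13.2 FPKM in cisplatin+PCN. Saa1, a serum amyloid A gene of a family of close copies whose reads can be split between them, was listed at 0 in each PCN library and at 9.26, 21.2 and 13.3 FPKM in cisplatin+PCN. Cfb, complement factor B, was the 1 member that fell, from 11.7, 12.4 and 11.6 to 3.7, 2.5 and 4.21 FPKM (-1.55 ± 0.15, limma, adjusted p = 0.000434). Members such as Saa1 and Fgb reached the expression minimum only through cisplatin+PCN libraries and had to differ to be tested, so the share that rose is not support for the list.

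The list of tubular injury and repair genes had 27 of 31 tested members higher and none lower, with a median change of 2.14; between 26 and 30 members rose when each of the 6 libraries was left out in turn. Of those tested, 7 (Havcr1, Krt20, Sox9, Sprr2f, Timp1, Atf3 and Fgb) were under 1 FPKM in every PCN library and had to be higher to be tested, so the count is not support for the list. Spp1 (osteopontin, a secreted glycoprotein of injured tubules) was already at 458, 445 and 424 FPKM in PCN and reached 7690, 13100 and 10300 FPKM in cisplatin+PCN. Clu (clusterin, an extracellular chaperone) went from 53.8, 46.5 and 47.3 to 233, 397 and 358 FPKM, and Tnfrsf12a (the TWEAK receptor) from 19.9, 20.5 and 16.1 to 154, 273 and 263 FPKM. Both were lowest in replicate 1 among the cisplatin+PCN libraries and neither group overlapped the other. Sox9, a transcription factor of regenerating tubule cells, went from at most 0.159 FPKM to 1.78, 3.91 and 4.85 FPKM (1.94 ± 0.26, limma, adjusted p = 0.00168). The members that did not pass included Vim, the intermediate filament of mesenchymal cells, at 8.64, 8.39 and 8.02 FPKM in PCN against 5.57, 10.4 and 7.58. Vcam1, an adhesion molecule of tubules that fail to repair, was at 1.3, 1.64 and 1.41 FPKM in PCN and at 1.28, 4.17 and 5.05 in cisplatin+PCN. Replicate 1 thus held no excess of Vcam1 over PCN, and the change of 0.76 (limma, adjusted p = 0.118) passed only without cisplatin+PCN replicate 1 (adjusted p = 0.000406) among the 6 libraries left out. Of 15 tested genes of the failed-repair tubule state, 7 rose and 2 fell, with a median of 0.30. Those that fell were Itgb8, an integrin subunit, and Sema5a, a semaphorin. Cxcl1 of this list was under 1 FPKM in every PCN library and had to be higher to be tested.

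Cytoskeletal genes rose alongside. Of 22 keratin and cytoskeleton genes 14 rose and none fell (1 fell without cisplatin+PCN replicate 2), with a median of 0.82. Krt20 was under 1 FPKM in every PCN library and had to be higher to be tested, so the count is not support. Krt8 and Krt18, the keratin pair of simple epithelia, rose by 1.11 ± 0.14 and 1.69 ± 0.08, Krt18 from 10.7, 9.79 and 10.3 to 34, 38.6 and 33.7 FPKM. The tubulins Tubb2a and Tubb2b rose by 1.87 ± 0.20 and 1.71 ± 0.18. Claudins and junction genes (10 of 18 higher, 3 lower, median 0.48) diverged within the family: Cldn4, a claudin of the collecting duct, went from 10.3, 9.84 and 11.7 to 52.2, 79.3 and 66 FPKM (2.51 ± 0.15, limma, adjusted p = 0.000107). Cldn10, of the thick ascending limb and proximal tubule, fell from 68.3, 63.5 and 71.4 to 52.8, 42.9 and 49.1 FPKM.

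Targets of p53 rose as a group in every cisplatin+PCN library. Of 35 tested genes 29 rose and none fell (29 or 30 with single libraries left out), with a median of 1.51. Of those tested, 5 (Eda2r, Tnfrsf10b, Psrc1, Gtse1 and Ckap2) were under 1 FPKM in every PCN library. These had to be higher to be tested, so the count is not support for the list. Phlda3, an inhibitor of Akt signalling, went from 6.59, 4.54 and 4.57 to 62.4, 82.5 and 82.6 FPKM (3.63 ± 0.17, limma, adjusted p = 4.08e-05). Mdm2, the ubiquitin ligase that degrades p53, went from 9.05, 9.62 and 8.89 to 25.5, 39.3 and 33.2 FPKM. Gdf15, a stress-induced cytokine, went from 3.89, 4.43 and 4.7 to 78.8, 187 and 117 FPKM, and Btg2, an antiproliferative factor, from 5.77, 6.18 and 7.15 to 73.8, 136 and 77.1. Replicate 1 was the lowest and replicate 2 the highest cisplatin+PCN library for these 4 genes, save that Phlda3 was within 0.1 FPKM in replicates 2 and 3. Apoptosis regulators included 14 of 22 members higher and 1 lower. Apaf1 was under 1 FPKM in every PCN library and had to be higher to be tested, so this count is not support either. Bbc3, which encodes the killer protein PUMA, went from 0.967, 1.05 and 1.79 to 10.1, 9.17 and 10.6 FPKM, and Bax, its pore-forming effector, from 19.1, 19.4 and 19.3 to 45.7, 55.8 and 55.1. Bcl2l1, which encodes the survival protein Bcl-xL, rose by a similar 1.39 ± 0.09. Bcl2 was the 1 that fell, by 0.23, and it no longer passed with any 1 of the 6 libraries left out (limma, adjusted p from 0.0685 to 0.124).

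Of 11 tested necroptosis, pyroptosis and ferroptosis genes 3 rose and none fell, where 23.3% of all genes tested passed in each direction. Without cisplatin+PCN replicate 1, 5 rose, and without PCN replicate 2, 1 fell. Acsl4, a lipid enzyme needed for ferroptosis, went from 11.6, 11.7 and 11.2 to 55, 53.3 and 48 FPKM (2.09 ± 0.07, limma, adjusted p = 1.73e-05). Mlkl, the membrane-breaking effector of necroptosis, went from 0.531, 0.862 and 0.803 to 1.61, 4.18 and 3.74 FPKM, and so had to be higher to be tested. Ripk3, the kinase that activates it, was at 0.623, 0.493 and 0.73 FPKM in PCN and at 0.628, 1.72 and 1.29 in cisplatin+PCN, below the minimum for testing. Only 13 of 29 cell cycle genes reached that minimum. Of these 5 rose and 3 fell, beside the same 23.3% of all genes tested in each direction. But 2 rose without PCN replicate 1, 2 or 3, and 3 without cisplatin+PCN replicate 2 or 3. Only 1 fell without PCN replicate 1, 2 or 3 or without cisplatin+PCN replicate 3. Pcna, the replication clamp, went from 18.8, 19.9 and 18.5 to 26.4, 26.2 and 24.6 FPKM, whereas Mcm6, a helicase subunit, fell from 5.55, 5.46 and 6.02 to 3.56, 3.64 and 3.51.

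Immediate early transcription factors and inflammatory signals rose. Of 21 tested immediate early genes and EGF receptor ligands 17 rose and 1 fell, with a median of 1.60. Fos, Fosl1 and Atf3 were under 1 FPKM in every PCN library and had to be higher to be tested. Egr1 went from 0.741, 1.37 and 1.18 to 10.4, 24.8 and 10.3 FPKM, and Junb from 8.13, 9.69 and 10.1 to 52.4, 54.5 and 39; both encode DNA-binding factors induced within minutes of a stimulus. Egf, made by the thick ascending limb and distal tubule, was the 1 that fell: it went from 156, 149 and 153 to 33.2, 10.6 and 17.8 FPKM (-2.98 ± 0.36, limma, adjusted p = 0.00108), a 7.44-fold difference of group means. Among 24 cytokine, chemokine and NF-kB genes 21 rose and 1 fell, with a median of 1.25. Cxcl1, Lif, Tnfaip3 and Osmr were likewise under 1 FPKM in every PCN library, so neither count is support for its list. Cxcl1, a neutrophil attractant, went from 0.373, 0.407 and 0.197 to 5.71, 22.1 and 10 FPKM. Socs3, the feedback inhibitor of STAT3 signalling, rose by 3.23 ± 0.18, and Birc3, an NF-kB target that blocks cell death, by 1.61 ± 0.12. Ccl5, a lymphocyte attractant, was the 1 that fell, by 0.45; it did not pass without PCN replicate 1, 2 or 3 or cisplatin+PCN replicate 2 (limma, adjusted p from 0.0528 to 0.0759). Several cytokines stayed below the minimum: Il6 was at 0.146 FPKM or less in each library, Tnf at 0.241 or less, and Ccl2 at 0.346, 0.448 and 0.285 FPKM in PCN against 0.524, 2.14 and 1.84.

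Leukocyte markers did not move together. Only 3 of 14 neutrophil genes reached the minimum, and they passed as higher: Lcn2, S100a8, which was under 1 FPKM in every PCN library and had to be higher to be tested, and S100a9; Mpo, a defining neutrophil granule enzyme, was listed at 0 in each library. S100a8 went from 0.315, 0.367 and 0.267 to 3.1, 8.66 and 1.94 FPKM. S100a9, its binding partner, changed by 1.97 ± 0.56 (limma, adjusted p = 0.0285), by 1.37 without cisplatin+PCN replicate 2 and 2.58 without replicate 3, and did not pass without PCN replicate 1, 2 or 3 or cisplatin+PCN replicate 1 (adjusted p from 0.0527 to 0.0881). Of 13 macrophage and dendritic genes 5 rose and 6 fell, where 23.3% of all genes tested passed in each direction. The number that rose was 3 when any library other than cisplatin+PCN replicate 1 was left out. Cd14, the endotoxin co-receptor that tubule cells can also express, went from 3.2, 3.37 and 3.68 to 31.5, 32.8 and 27.2 FPKM. Cd68, a lysosomal protein, went from 1.36, 1.78 and 1.51 to 5, 15.6 and 8.17 FPKM. Csf1r, the receptor that defines macrophages, fell from 10.1, 12.1 and 9.58 to 4.24, 4.38 and 4.54 FPKM (-1.10 ± 0.09, limma, adjusted p = 0.000274), and the antigen-presenting genes H2-Aa and H2-Eb1, members of a multigene family, each fell by 1.36 ± 0.13. The 3 of 19 lymphocyte genes that reached the minimum (Ighm, Igkc and Trbc2) fell, though Igkc not by limma-voom (adjusted p = 0.0637), with their list's summed FPKM at 15 to 16.7 in PCN and 4.74 to 5.64 in cisplatin+PCN. The part of leukocyte numbers in the inflammatory changes was not tested.

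Matrix and fibroblast genes had 12 of 27 members higher and 1 lower, with a median of 0.31. This count rested on 1 library, since 21 rose without cisplatin+PCN replicate 1. It is not support for the list, since Lox, Timp1 and Mmp7 were under 1 FPKM in every PCN library and had to be higher to be tested. Timp1, an inhibitor of matrix proteases, was at 0.492, 0.115 and 0.886 FPKM in PCN and at 2.96, 14.7 and 9.25 in cisplatin+PCN. Mmp7, a matrix protease of injured epithelium, had 0 reads in the PCN libraries and 308 in the cisplatin+PCN libraries, at least 92.8-fold higher with PCN set to 3 reads over its group. Col4a1, a basement membrane collagen, went from 26.6, 25.6 and 24.9 to 48, 68.4 and 60.3 FPKM. The interstitial collagen gene Col1a1 was at 4.18, 4.49 and 3.85 FPKM in PCN and at 1.67, 6.58 and 6.05 in cisplatin+PCN, with replicate 1 on the other side of the PCN values; it passed only without that replicate (limma, adjusted p = 0.00303) among the 6 left out. Acta2, the smooth muscle actin of myofibroblasts, was at 12.8 to 16.5 FPKM in PCN and at 12.4 to 17.2 in cisplatin+PCN. Mmp2, a fibroblast protease, was the 1 that fell, by 0.32; it did not pass without PCN replicate 3 or cisplatin+PCN replicate 3, and 2 members fell without cisplatin+PCN replicate 2.

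Transport genes of the proximal tubule fell. Of 39 members, all tested, 28 fell, 3 rose and 8 did not pass, with a median of -0.96; without cisplatin+PCN replicate 1, the least changed library, 34 fell. Slc34a1 (ENSMUSG00000021490, chromosome 13, 55398187 to 55415592), the main sodium-phosphate cotransporter, went from 1130, 1070 and 1100 FPKM to 239, 62.1 and 166 FPKM. It fell by 3.01 ± 0.46 on the log2 scale (limma, adjusted p = 0.00258), with group means 7.05-fold apart. Slc7a13, an aspartate, glutamate and cystine transporter of the straight segment, went from 553, 582 and 500 to 32.4, 6.4 and 12.8 FPKM (-5.18 ± 0.50, limma, adjusted p = 0.000483). Slc22a28 and Slco1a1, of the organic anion transporter families (the first outside the list), went from 96.7, 71.9 and 73.5 to 3.47, 0.314 and 1.12 FPKM and from 97.7, 69 and 78.2 to 9.55, 1.52 and 4.7 FPKM. For each of these 4 genes replicate 1 kept the highest and replicate 2 the lowest level among the cisplatin+PCN libraries. Slc22a7, a further organic anion carrier, changed by -3.73 ± 0.64, and by -4.52 without cisplatin+PCN replicate 1.

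Lrp2, which encodes the uptake receptor megalin, went from 130, 118 and 133 to 37, 23.3 and 31.8 FPKM (-2.04 ± 0.16, limma, adjusted p = 0.000273), and its partner Cubn, cubilin, from 30.2, 29.1 and 28.8 to 20, 11.6 and 13.3 FPKM (-0.96 ± 0.18). Slc5a2, the glucose transporter SGLT2 of the early segment, went from 143, 122 and 128 to 64.4, 24.7 and 45.9 FPKM. The 3 transporters that rose were Slc13a1, Slc6a18 and Slc5a1. Slc13a1, the apical sodium-sulfate cotransporter, went from 26.9, 31.3 and 27.5 to 91.2, 46.2 and 77.5 FPKM (1.24 ± 0.24, limma, adjusted p = 0.0066). Slc6a18, a glycine transporter, went from 113, 136 and 118 to 189, 263 and 243 FPKM. Slc5a1, the glucose transporter SGLT1 of the late segment, rose by 0.30 ± 0.07, a call lost without PCN replicate 2 (adjusted p = 0.0504).

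Proximal tubule enzymes fell by a median of 1.28 on the log2 scale, with 21 of 35 lower and 1 higher; 29 fell without cisplatin+PCN replicate 1. Gatm (ENSMUSG00000027199, chromosome 2, 122594467 to 122611303), which catalyses the first step of creatine synthesis, went from 276, 202 and 236 to 14.5, 8.76 and 13.8 FPKM. Gatm fell by 4.18 ± 0.20 (limma, adjusted p = 5.14e-05), a 19.2-fold difference of group means. Inmt, an indolethylamine methyltransferase, went from 597, 796 and 710 to 37, 8.67 and 9.21 FPKM (-5.49 ± 0.52, and -6.13 without cisplatin+PCN replicate 1). Acsm2, a medium-chain acyl-CoA synthetase, went from 719, 696 and 718 to 107, 19.9 and 39.6 FPKM (-3.98 ± 0.54, and -4.61 without replicate 1). Miox, which begins inositol breakdown, went from 1030, 1020 and 1020 to 142, 28 and 108 FPKM (-3.74 ± 0.56, and -3.04 without replicate 2). Kap, the most abundant of these transcripts, went from 27300, 31000 and 28500 to 7710, 2940 and 3240 FPKM (-2.79 ± 0.38, limma, adjusted p = 0.0017, but 0.216 with no expression minimum). The 1 member that rose was Pck1, the rate-limiting enzyme of gluconeogenesis, from 1080, 1060 and 884 to 2280, 1550 and 1620 FPKM (0.83 ± 0.18, limma, adjusted p = 0.0109), a call lost without PCN replicate 3 (adjusted p = 0.0501) and with no expression minimum (0.0897). Hnf4a, the transcription factor that maintains proximal tubule identity, was at 190, 210 and 188 FPKM in PCN and at 214, 87.5 and 127 in cisplatin+PCN, where replicate 1 lay above the PCN range and the others below it; it passed only without replicate 1 (limma, adjusted p = 0.00564) among the 6 left out. Over 18 kidney transcription factors 7 rose and 4 fell, where 23.3% of all genes tested passed in each direction. Sox9 of this list was under 1 FPKM in every PCN library and had to be higher to be tested. The number that fell was 2 without PCN replicate 1, 2 or 3 or cisplatin+PCN replicate 3, and 8 without cisplatin+PCN replicate 1.

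**Figure D2:**
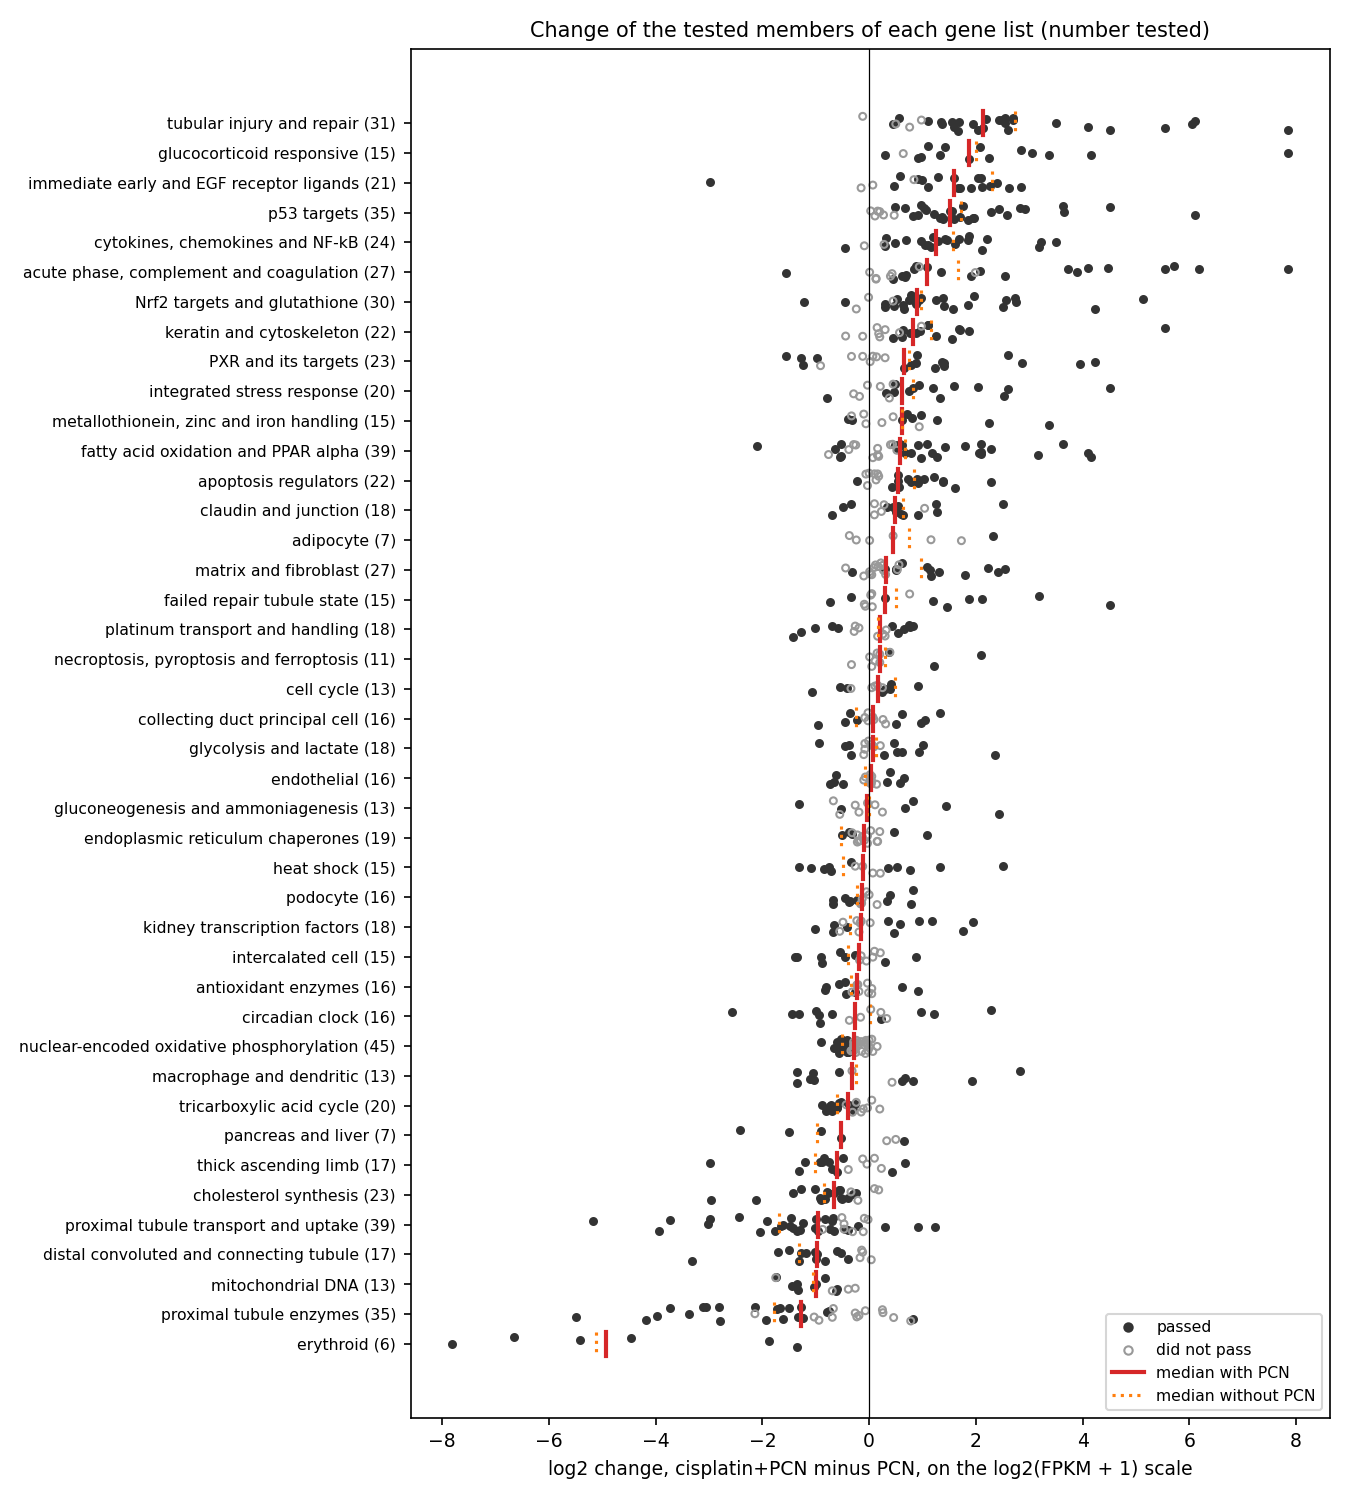
Log2 change (x, cisplatin+PCN minus PCN) of each tested member of the gene lists with at least a handful of tested members (y), filled where it passed limma's test, with the list's median with PCN (solid bar) and without PCN (dotted bar). Tubular injury and repair stands at the top with a median of 2.14, and proximal tubule enzymes at -1.28 and erythroid genes at -4.94 stand at the bottom.

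The distal nephron changed segment by segment. Among 17 thick ascending limb genes 10 fell and 2 rose (1 without PCN replicate 2 or cisplatin+PCN replicate 2 or 3), with a median of -0.61. Slc12a1, the bumetanide-sensitive salt transporter NKCC2, went from 248, 258 and 256 to 172, 119 and 164 FPKM (-0.76 ± 0.15, limma, adjusted p = 0.00675). Umod, the most abundant transcript of that segment, was at 1350, 1360 and 1250 FPKM in PCN and at 1500, 1210 and 1150 FPKM in cisplatin+PCN, and the groups overlapped. In the distal convoluted and connecting tubule 13 of 17 fell and none rose, with a median of -0.98. Slc12a3, the thiazide-sensitive salt transporter NCC, went from 85.6, 60.2 and 65.7 to 22.8, 17.7 and 22.1 FPKM (-1.70 ± 0.16, limma, adjusted p = 0.000401), and Pvalb, a calcium-binding protein of the early segment, from 12.3, 9.59 and 11.8 to 0.42, 0.0755 and 0.19. Tmem52b, a membrane protein gene, went from 92.9, 86.9 and 82.7 to 42.5, 30.4 and 34.4 FPKM.

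Collecting duct genes went both ways. Of 16 principal cell genes 5 rose and 4 fell, where 23.3% of all genes tested passed in each direction. Aqp2, the vasopressin-regulated water channel, went from 219, 254 and 223 to 542, 454 and 389 FPKM (0.98 ± 0.14, limma, adjusted p = 0.00209), and the urea transporter gene Slc14a2 from 12.6, 15 and 18.4 to 28.8, 43.9 and 26.9. Scnn1a, a subunit of the epithelial sodium channel, rose by 0.51 ± 0.08, whereas Nr3c2, the aldosterone receptor, fell by 0.46 ± 0.06. Of 15 intercalated cell genes 2 rose (1 without PCN replicate 1 or 3 or cisplatin+PCN replicate 3) and 7 fell. The proton pump subunit genes diverged: Atp6v1b1 fell from 28.5, 27.2 and 29.5 to 12.3, 15.4 and 16.7 FPKM, and Atp6v0a4 rose from 56.7, 57.3 and 54.3 to 125, 94.9 and 94.5.

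Glomerular and vascular genes went both ways. Of 16 podocyte genes 4 rose and 6 fell, where 23.3% of all genes tested passed in each direction. Only 2 or 3 fell without PCN replicate 1 or 2 or cisplatin+PCN replicate 2 or 3, and the median was -0.14. Nphs1, which encodes the slit diaphragm protein nephrin, was at 4.16, 4.55 and 4.04 FPKM in PCN and at 4.65, 3.99 and 4.1 in cisplatin+PCN. Of 16 endothelial genes 4 rose and 4 fell, near the 23.3% of all genes tested in each direction. Within the VEGF receptors, Flt1 rose from 5.76, 6.27 and 5.88 to 10.1, 10.3 and 7.97 FPKM while Kdr fell from 8.88, 10.3 and 9.76 to 6.61, 5.58 and 5.29 FPKM (0.57 ± 0.10 and -0.65 ± 0.09, limma, adjusted p = 0.00442 and 0.00217).

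Genes of mitochondrial respiration had lower medians, and how many passed turned on single libraries. Of 45 nuclear-encoded oxidative phosphorylation genes 18 fell and none rose, with a median of -0.29. That count was 7, 5 and 7 without PCN replicates 1, 2 and 3, and 32 and 7 without cisplatin+PCN replicates 1 and 3. Ndufs1, a core subunit of complex I, went from 41.8, 42.1 and 41.9 to 26.5, 18.6 and 21.2 FPKM (-0.91 ± 0.12, limma, adjusted p = 0.00168). Of the 13 protein-coding genes of mitochondrial DNA 9 fell and none rose, or 5 without PCN replicate 1, 2 or 3, with a median of -0.99. mt-Co2, a subunit of complex IV, went from 492, 910 and 735 to 234, 181 and 202 FPKM. The mt-Co1 gene of the same complex was at 21200, 22200 and 22000 FPKM in PCN and at 20000, 15000 and 15200 in cisplatin+PCN. It passed only without cisplatin+PCN replicate 1 (limma, adjusted p = 0.00751) among the 6 left out. The direction for mt-Co1 turned on the processing. It was called higher under quantile normalization (0.31, limma, adjusted p = 0.00713). It was called lower with a mean FPKM of at least 5, with array weights and in the fit to all 12 libraries (limma, adjusted p from 0.000662 to 0.0487). In the tricarboxylic acid cycle 12 of 20 genes fell and none rose, with a median of -0.40. Mdh1, malate dehydrogenase, went from 520, 531 and 515 to 344, 237 and 274 FPKM. Ppargc1a and Esrra, regulators of mitochondrial gene expression, fell by 0.52 ± 0.08 and 1.02 ± 0.09.

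Fatty acid oxidation genes and targets of PPAR alpha went the other way, with 22 of 39 higher and a median of 0.58. The 5 that fell were 9 without cisplatin+PCN replicate 1 and 1 or 2 without any other library. For Pdk4, Cyp4a14, Cyp4a10 and Angptl4 replicate 1 was the highest cisplatin+PCN library. Pdk4, the kinase that shuts pyruvate dehydrogenase, went from 10.9, 4.93 and 8.46 to 257, 116 and 125 FPKM (4.16 ± 0.37, limma, adjusted p = 0.000355). Cyp4a14 and Cyp4a10, fatty acid hydroxylases of a family of close copies, went from 62.7, 79.8 and 108 to 1580, 694 and 985 FPKM and from 113, 139 and 195 to 953, 468 and 540 FPKM. Plin2, the coat protein of lipid droplets, went from 29, 26.6 and 28.3 to 258, 256 and 262 FPKM (3.17 ± 0.07, limma, adjusted p = 5.39e-06) and showed no such order. Angptl4, a lipase inhibitor under PPAR control, went from 16.6, 16.3 and 23.1 to 106, 89.5 and 87.6 FPKM. Cpt1a, which admits long-chain fatty acids to mitochondria, was at 113, 123 and 115 FPKM in PCN and at 245, 118 and 139 in cisplatin+PCN, and did not pass (limma, adjusted p = 0.203).

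Sterol synthesis fell, and sugar metabolism was mixed. Of 23 cholesterol synthesis genes 19 fell and none rose (1 without cisplatin+PCN replicate 1), with a median of -0.65. Cyp51, the lanosterol demethylase, went from 78.8, 98.3 and 91.1 to 17.6, 7.12 and 9.15 FPKM (-2.97 ± 0.29, limma, adjusted p = 0.000516). Idi1, an isomerase that supplies isoprenoid units, went from 17.2, 14.6 and 13.7 to 2.38, 2.73 and 3.05 FPKM. In glycolysis and lactate handling 7 of 18 rose and 4 fell. Slc16a1, the lactate transporter MCT1, went from 6.27, 5.35 and 6.06 to 35.5, 36.7 and 31.3 FPKM (2.36 ± 0.09), while Pfkm, the muscle-type phosphofructokinase, went from 20.8, 19.9 and 20.7 to 11.8, 9.1 and 9.81. In gluconeogenesis and ammonia production 4 of 13 rose and 2 fell, 7 falling without cisplatin+PCN replicate 1. The counts of both sugar lists stand beside 23.3% of all genes tested passing in each direction. Slc38a3, the basolateral glutamine importer that rises in acidosis, went from 11.5, 13.2 and 12.1 to 77.5, 66.3 and 68.7 FPKM (2.43 ± 0.09, limma, adjusted p = 2.03e-05), and Glud1, glutamate dehydrogenase, from 150, 144 and 135 to 451, 341 and 387.

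Detoxification genes under the oxidant-responsive factor Nrf2 rose, with 25 of 30 higher, 2 lower and a median of 0.89. Gsta1 was under 1 FPKM in every PCN library and had to be higher to be tested, so the count is not support. Cbr3, a carbonyl reductase, went from 1.01, 1.31 and 0.988 to 63.9, 70 and 86.9 FPKM (5.14 ± 0.13, limma, adjusted p = 5.39e-06). Nqo1, the quinone reductase that is the usual marker of the pathway, went from 33.4, 37 and 32.8 to 207, 178 and 217 FPKM, and Srxn1, sulfiredoxin, from 22.6, 24.9 and 22.9 to 97.1, 174 and 176. Gsta1, a glutathione transferase of a multigene family, rose by 4.24 ± 0.55 and by 4.93 without cisplatin+PCN replicate 1. Antioxidant enzymes outside that pathway did not follow: of 16 genes 2 rose (1 without PCN replicate 2 or 3) and 6 fell (2 or 3 without PCN replicate 1, 2 or 3 or cisplatin+PCN replicate 3). Both counts stand beside 23.3% of all genes tested passing in each direction. Sod2, the mitochondrial superoxide dismutase, fell from 102, 104 and 100 to 67.5, 50.8 and 57.8 FPKM (-0.80 ± 0.11, limma, adjusted p = 0.00178).

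Metallothioneins, small cysteine-rich proteins that bind zinc, copper and platinum, were induced. Mt1 (ENSMUSG00000031765, chromosome 8, 94179082 to 94180327) went from 76.3, 80.5 and 82.7 to 603, 1090 and 893 FPKM, and rose by 3.37 ± 0.21 (limma, adjusted p = 0.000112). Mt2 (ENSMUSG00000031762, chromosome 8, 94172664 to 94173568) went from 0.595, 0 and 0.315 to 3.25, 6.88 and 5.58 FPKM, and rose by 2.24 ± 0.26 (limma, adjusted p = 0.001). Being under 1 FPKM in every PCN library, Mt2 had to be higher to be tested, so its call adds no support to that of Mt1. The copies are near-identical in part, so reads may have been split between them. The regions upstream of both are shown because the genes are neighbours that rose together: chr8:94178839-94179081 for Mt1 and chr8:94172368-94172617 for Mt2, both on the plus strand, from RefSeq on GRCm38.p6, 5′ to 3′, with matches to the metal response element (TGCACNC or TGCGCNC, either strand) in capitals. RefSeq's start sites differ from the gene starts of the deposited table by 7 bases for Mt1, whose last 7 window bases lie inside that gene and are not shown, and by 46 bases for Mt2, and distances are counted from RefSeq's. 
Mt1: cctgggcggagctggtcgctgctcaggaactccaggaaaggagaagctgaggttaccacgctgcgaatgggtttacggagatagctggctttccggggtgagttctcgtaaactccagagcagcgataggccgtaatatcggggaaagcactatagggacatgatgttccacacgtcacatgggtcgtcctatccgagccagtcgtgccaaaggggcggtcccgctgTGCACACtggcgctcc
Mt2: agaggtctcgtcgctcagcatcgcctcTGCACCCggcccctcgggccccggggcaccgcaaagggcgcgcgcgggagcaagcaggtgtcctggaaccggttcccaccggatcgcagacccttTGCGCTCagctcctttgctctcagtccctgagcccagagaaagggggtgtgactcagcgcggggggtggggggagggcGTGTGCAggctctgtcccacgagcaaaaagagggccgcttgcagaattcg
Mt1 held 1 match, 23 bases before the start site, and Mt2 held 3, at 223, 128 and 50 bases before it, the last on the opposite strand. Such a match was present in 7011 of 32536 windows (21.5%). Over 15 tested metallothionein, zinc and iron genes 7 rose and 2 fell, where 23.3% of all genes tested passed in each direction. The number that fell was 0 or 1 when any library other than cisplatin+PCN replicate 1 was left out. Like Mt2, Trf of this list was under 1 FPKM in every PCN library and had to be higher to be tested. Hmox1, the haem-degrading enzyme counted with the Nrf2 targets, went from 11.1, 12.1 and 14.6 to 34.4, 64.3 and 61.3 FPKM.

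Stress pathways of protein folding were split. Of 20 integrated stress response genes 13 rose and 1 fell, with a median of 0.61. Atf3, Trib3 and Chac1 were under 1 FPKM in every PCN library and had to be higher to be tested, so the count is not support for the list. Psat1, an enzyme of serine synthesis, went from 7.85, 7.79 and 7.08 to 60.9, 45.3 and 40.4 FPKM, and Shmt2, a mitochondrial serine enzyme, was the 1 that fell. Endoplasmic reticulum chaperones had 2 of 19 higher and 3 lower, with a median of -0.09, where 23.3% of all genes tested passed in each direction. The 2 were 1 without PCN replicate 1, 2 or 3 or cisplatin+PCN replicate 3, and the 3 were 1 without PCN replicate 1 or 2 or cisplatin+PCN replicate 3 and 5 without cisplatin+PCN replicate 1. Hspa5, the main chaperone BiP, was at 116, 112 and 104 FPKM in PCN and at 106, 115 and 103 in cisplatin+PCN. Of 15 heat shock genes 5 rose (3 without PCN replicate 2 or 3 or cisplatin+PCN replicate 2 or 3) and 6 fell, beside the same 23.3%. Those that rose included the small heat shock protein gene Hspb1, from 13.3, 11.8 and 14 to 62.4, 98.5 and 79.4 FPKM (2.51 ± 0.17, limma, adjusted p = 0.000135). Those that fell included Hsph1 and Dnaja1, cofactors of Hsp70, by 1.31 ± 0.13 and 1.08 ± 0.08.

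Genes that respond to glucocorticoids rose in 14 of 15 tested cases, with a median of 1.87. Mt2 of this list was under 1 FPKM in every PCN library and had to be higher to be tested. The count is therefore not support for the list. Fkbp5, a cochaperone of the glucocorticoid receptor, went from 21.6, 20.4 and 16 to 86.4, 88.9 and 76.3 FPKM (2.07 ± 0.13, limma, adjusted p = 0.000106), and Cebpd, a transcription factor of the acute phase, from 2.05, 2.18 and 1.86 to 33.7, 21.7 and 18.9. This list shares Lcn2, Mt1 and Pdk4 with sets described above. Of 16 circadian clock genes 4 rose and 7 fell, where 23.3% of all genes tested passed in each direction. Arntl, which encodes the activator BMAL1, went from 0.267, 0.156 and 0.271 to 1.5, 1.84 and 2.32 FPKM. Being under 1 FPKM in every PCN library, Arntl had to be higher to be tested. Dbp, one of the output genes of BMAL1, went from 34.5, 35.3 and 37.5 to 7.4, 4.58 and 4.08 FPKM (-2.57 ± 0.18, limma, adjusted p = 0.000182). Times of day are not given in the sources used here.

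PXR and its targets were examined because PCN activates this receptor and was present in both groups. Nr1i2, the PXR gene, went from 2.5, 2.35 and 2.03 to 4.89, 4.68 and 4.46 FPKM (0.79 ± 0.08, limma, adjusted p = 0.000496). Of 23 tested members of the list (41 listed) 12 rose and 4 fell, with a median of 0.65. Cyp3a13, Abcc3, Ugt1a1 and Gsta1 were under 1 FPKM in every PCN library and had to be higher to be tested, so the count is not support for the list. Abcb1b, the drug exporter P-glycoprotein, went from 0.914, 1.36 and 0.909 to 10.3, 12.4 and 11.9 FPKM (2.61 ± 0.11, limma, adjusted p = 3.14e-05). Aldh1a1 and Aldh1a7, aldehyde dehydrogenases, went from 1.12, 1.19 and 1.28 to 27.8, 32.4 and 40.9 FPKM and from 4.97, 4.83 and 4.99 to 39.6, 42.5 and 44.1. Outside that list, Ephx1, epoxide hydrolase, went from 29.6, 30.1 and 34.5 to 187, 229 and 227 FPKM, and Ugt1a10, a glucuronosyltransferase whose locus shares exons among several genes, from 1.35, 1.73 and 1.12 to 40.9, 43.1 and 62.6. The classic liver targets were near the floor: Cyp3a11 was at 0.336 FPKM or less in each library, and Cyp2b10 at 0.0965 or less in PCN and 1.26, 1.13 and 0.318 in cisplatin+PCN. Cyp3a13 went from 0.251, 0.276 and 0.203 to 1.41, 1.38 and 1.03 FPKM. The members that fell were led by Fmo5, a flavin monooxygenase, from 17.3, 16.7 and 15.2 to 6.48, 3.78 and 4.71 FPKM (-1.56 ± 0.16), and Cyp2a4, a steroid hydroxylase with a close copy, by 1.28 ± 0.26.

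Carriers that move platinum into and out of the tubule were mixed. Of 18 tested genes of platinum transport and handling 6 were higher and 5 lower (8 without cisplatin+PCN replicate 1). Among all genes tested 23.3% passed in each direction. Slc22a2, the basolateral uptake transporter OCT2, went from 141, 138 and 129 to 83.2, 51.3 and 68.4 FPKM (-1.02 ± 0.17, limma, adjusted p = 0.0037). Slc47a1, the apical exporter MATE1, went from 174, 163 and 162 to 65.1, 53.3 and 67 FPKM (-1.42 ± 0.10, limma, adjusted p = 0.000195). Abcc4, an ATP-driven exporter of organic anions, rose from 7.39, 7.35 and 7.53 to 12.8, 15 and 14.1 FPKM, and Gstp1, a glutathione transferase, from 135, 138 and 134 to 212, 235 and 241.

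Globins were among the largest decreases, led on the log2 scale by Hbb-bs (-7.81) and Hba-a1 (-6.65). Hbb-bs went from 316, 236 and 197 FPKM to 0, 0.0511 and 0.257, Hba-a1 from 148, 126 and 87.7 to 0.049, 0.387 and 0.146, and Hba-a2 from 24.6, 22.2 and 19.1 to 0, 0.118 and 0. Hbb-bt held 1922 reads in the PCN libraries and 0 in cisplatin+PCN, at least 709-fold lower with cisplatin+PCN set to 3 reads over its group. All 6 tested erythroid genes fell, among them Slc4a1, which intercalated cells also express, and the summed FPKM of the list was 348 to 552 in PCN and 2.99 to 4.54 in cisplatin+PCN. Globins are transcripts of red cell precursors and of young red cells in blood held by the tissue, and their copies are similar enough that reads may be split. The part of blood content or of red cell production was not tested. Of other tissues that a kidney sample can carry, adipocyte genes summed to 18.7, 21.2 and 206 FPKM in PCN when sorted and to 49.9, 51.3 and 92.6 in cisplatin+PCN, with 1 of 7 called higher (3 without PCN replicate 1). Of 7 pancreas and liver genes 1 rose (2 without PCN replicate 3) and 4 fell (2 without PCN replicate 3 or cisplatin+PCN replicate 2 or 3), led by Ttr, transthyretin, from 64.8, 69.1 and 83.4 to 13.3, 11.7 and 12.8 FPKM. The adrenal markers Cyp11b1 and Cyp11b2 and the muscle markers Myh2 and Myh4 were listed at 0 in all 6 libraries, and the 1 tested gene of each of those lists did not pass (adrenal cortex) or fell by 0.42 (Pygm, lost without PCN replicate 1 or 3).

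The cisplatin+PCN libraries differed more among themselves than the PCN libraries. The median SD of log2(FPKM + 1) within a group was 0.0735 in PCN and 0.126 in cisplatin+PCN, and it was larger in cisplatin+PCN for 70.6% of genes. Replicate 1 was the least changed cisplatin+PCN library for 55.5% of the genes that rose by at least 1 and for 66.8% of those that fell by at least 1, and replicate 2 the most changed for 55.8% and 73.5%. Injury genes in replicates 1, 2 and 3 stood at medians of 1.31, 2.52 and 2.50 above the PCN mean on the log2 scale, and proximal tubule enzymes at -0.76, -1.79 and -1.27. Targets of p53 were closer, at 1.38, 1.65 and 1.48. Fatty acid oxidation genes showed the reverse order, with 0.96 in replicate 1 against 0.36 and 0.44.

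**Figure D3:**
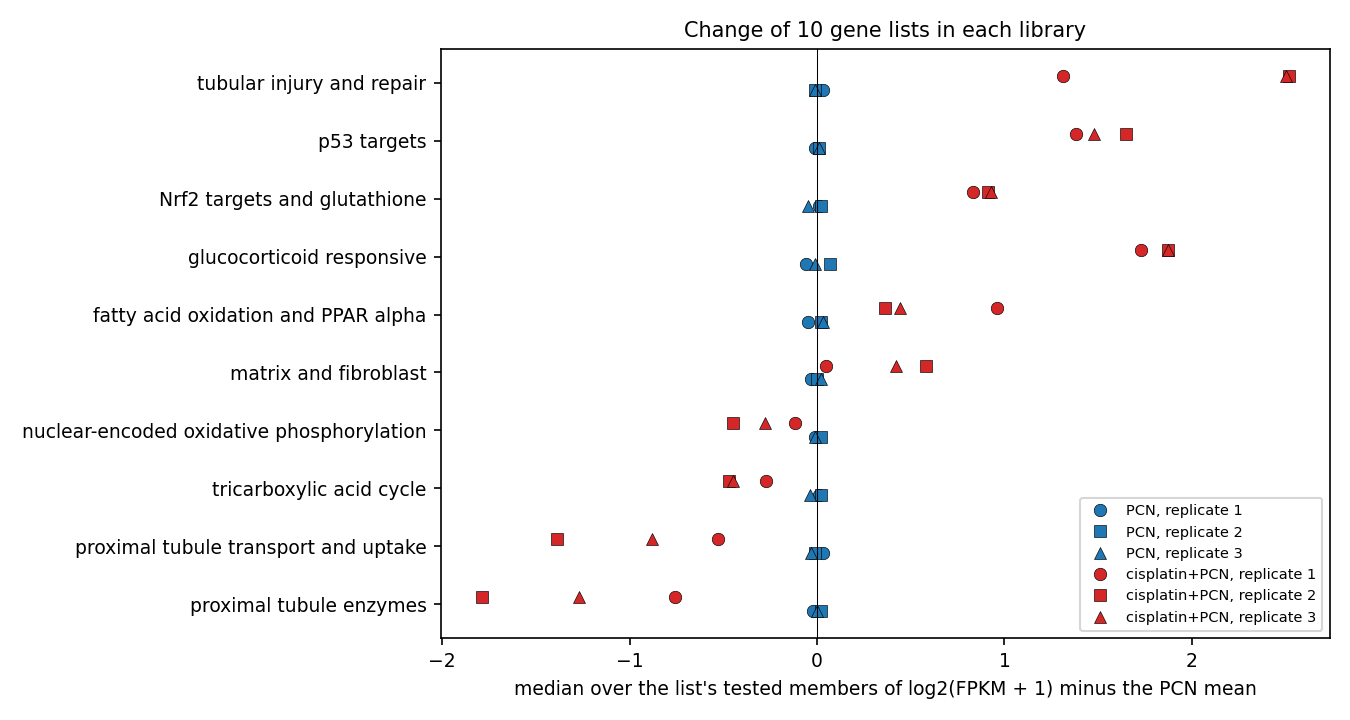
Median over the tested members of a gene list (y) of log2(FPKM + 1) minus the PCN mean (x) in each of the 6 libraries, where colour gives the group and marker shape the replicate. Cisplatin+PCN replicate 1 lies nearest to the PCN libraries for tubular injury (1.31) and proximal tubule enzymes (-0.76) and farthest from them for fatty acid oxidation (0.96).

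The cisplatin effect under PCN was then set beside the cisplatin effect in mice given oil (cisplatin against control), which rests on the other 6 libraries. Across 12821 genes the log2 changes had a Pearson correlation of 0.934 and a Spearman correlation of 0.896; genes are not independent replicates, so these describe the agreement of sizes without a test. Of 1188 genes that passed under PCN with a change of at least 1 in size, 1178 (99.2%) had the same sign without PCN, and 940 had a smaller change with PCN. Medians of 3 lists were 2.14 with PCN against 2.74 without for tubular injury, 1.51 against 1.72 for p53 targets, and -0.96 against -1.69 for proximal tubule transport. With cisplatin+PCN replicate 1 left out, these medians with PCN were 2.63, 1.55 and -1.17, so their distance from those without PCN rested partly on that library. Endoplasmic reticulum chaperones, at -0.09 with PCN, were at -0.53 without, and matrix and fibroblast genes at 0.31 and 0.97. With cisplatin+PCN replicate 1 left out, these 2 lists were at -0.04 and 0.52 with PCN. Medians of opposite sign were 0.08 with PCN and -0.25 without for collecting duct principal cell genes, -0.26 and 0.01 for circadian clock genes, and 0.03 and -0.08 for endothelial genes. The endothelial median with PCN was -0.03, of the same sign as without, when cisplatin+PCN replicate 1 was left out. None of these differences between list medians was tested.

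**Figure D4:**
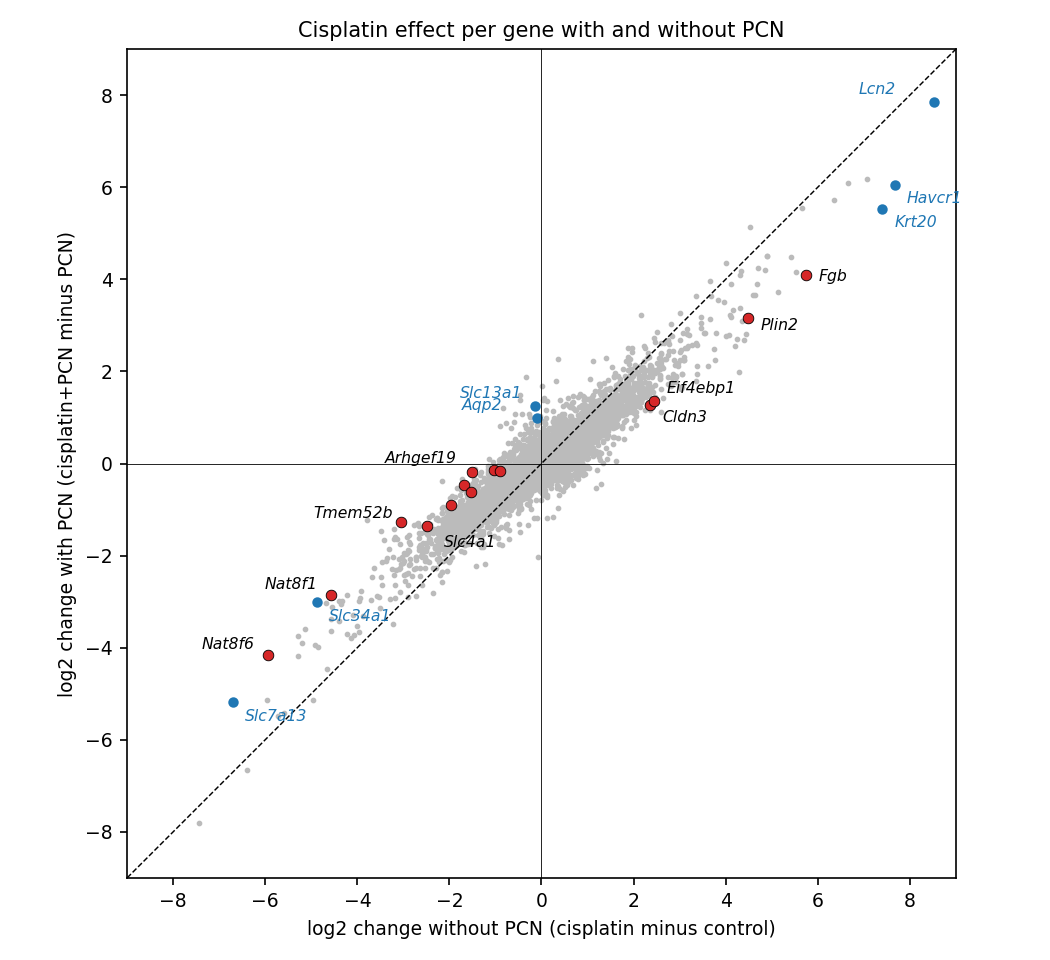
Log2 change of each gene without PCN (x, cisplatin minus control) and with PCN (y, cisplatin+PCN minus PCN), with the line of equal change dashed, genes whose difference passed in red and other genes of the text in blue. The points follow the line with r = 0.934, and the red genes lie nearer to the horizontal axis than the line.

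The difference between the cisplatin effects was tested gene by gene in 1 fit of all 12 libraries and 13540 genes. It passed for 15 genes (0.111%), 10 with a positive (0.0739%) and 5 with a negative difference (0.0369%), by limma at an adjusted p under 0.05, while 2617 genes (19.3%) had an unadjusted p under 0.05. In all 15 genes the change with PCN was smaller in size than without; for Pi15, below the minimum under PCN, this was read from its levels. The count was unstable: it was 1066 without cisplatin replicate 2, 493 without cisplatin+PCN replicate 2 and 9 without cisplatin+PCN replicate 3.

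The 5 negative differences were of genes that cisplatin raised without PCN. Fgb stood at 62.6, 52.7 and 75.6 FPKM after cisplatin alone and at 19, 24.4 and 19.2 after cisplatin+PCN, from 0.126 to 0.304 FPKM in the groups without cisplatin. Its rise was smaller by 1.63 ± 0.18 with PCN (limma, adjusted p = 0.00909), although limma-voom did not call it (adjusted p = 0.147). Plin2 reached 713, 502 and 573 FPKM after cisplatin alone and 258, 256 and 262 with PCN, a difference of -1.32 ± 0.16 (limma, adjusted p = 0.00909). Cldn3, a claudin of the distal nephron, reached 56.3, 44.5 and 53.9 FPKM alone and 29.5, 29.4 and 27.3 with PCN, and Eif4ebp1, a brake on translation, 49, 41.2 and 48.8 alone and 20, 24.1 and 21.9 with PCN. Pi15, a secreted peptidase inhibitor, reached 3.79, 3.59 and 4.5 FPKM alone and 0.828, 1.23 and 0.982 with PCN. For each of the 5 the highest cisplatin+PCN library lay below the lowest cisplatin library.

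The 10 positive differences were of genes that cisplatin lowered without PCN. With PCN 7 of them fell, while Arhgef19, Amt and Kcnj10 changed by -0.18, -0.14 and -0.17 and did not pass (limma, adjusted p = 0.201, 0.175 and 0.0821). Nat8f6 (ENSMUSG00000079495, chromosome 6, 85808024 to 85820954) and Nat8f1, N-acetyltransferase genes of a family of close copies in the proximal tubule, kept 5.25, 3.4 and 4.75 FPKM and 52.8, 34.7 and 50.2 FPKM with PCN, against 0.795, 0.536 and 0.173 and 12.2, 16.5 and 12.6 after cisplatin alone. Their differences were 1.78 ± 0.21 and 1.72 ± 0.21 (limma, adjusted p = 0.00909 for each). Slc13a2, the apical citrate transporter, was at 15.7, 13.2 and 14.6 FPKM with PCN and at 4.09, 5.53 and 4.44 alone (1.23 ± 0.15, limma, adjusted p = 0.00909), and Acot11, an acyl-CoA thioesterase, at 4.46, 3.77 and 4 against 1.76, 2.19 and 1.88. Tmem52b was at 42.5, 30.4 and 34.4 FPKM with PCN and at 6.44, 11.9 and 10.9 alone (1.77 ± 0.26, limma, adjusted p = 0.0311). Arhgef19, a guanine nucleotide exchange factor, was at 3.44, 3.55 and 3.85 FPKM with PCN and at 1.38, 2.27 and 1.24 alone; its PCN libraries, at 3.49, 4.61 and 4.6, were also below the controls at 6.69, 5.7 and 6.7. The rest were Slc4a1 (the chloride-bicarbonate exchanger of intercalated and red cells), Rhcg (the ammonia channel of the collecting duct), Amt (a glycine cleavage enzyme) and Kcnj10 (a basolateral potassium channel), with differences of 1.13, 1.07, 0.89 and 0.73. The calls of Tmem52b, Arhgef19, Slc4a1, Rhcg, Amt and Kcnj10 were each lost when single libraries were left out: Kcnj10 without control replicate 1 or 3 or cisplatin+PCN replicate 3 (adjusted p from 0.0525 to 0.0563), and the others without PCN replicate 1, 2 or 3 and several more (adjusted p from 0.0519 to 0.165). Rhcg was also lost under each of the 3 rescalings (adjusted p from 0.0527 to 0.0619).

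**Figure D5:**
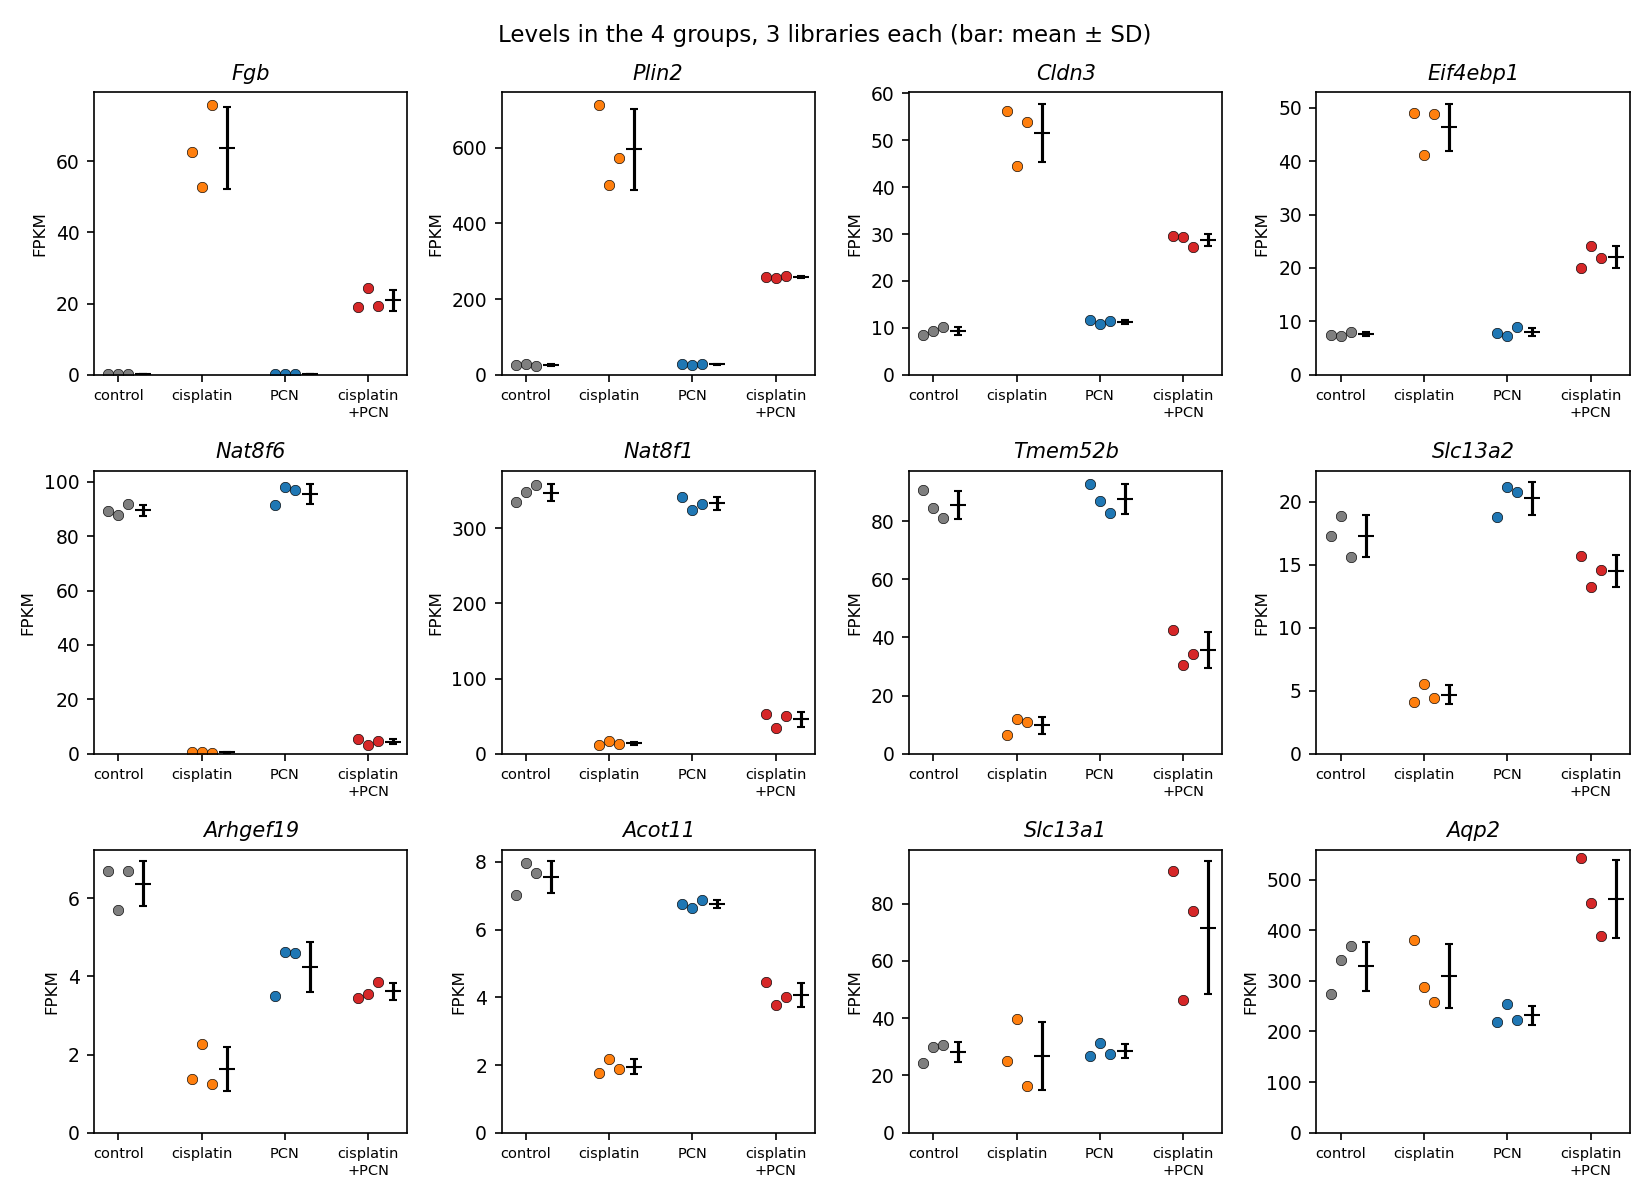
FPKM (y, from 0) in the 3 libraries of each of the 4 groups (x) for 10 genes whose cisplatin effect differed with PCN and for Slc13a1 and Aqp2, with the mean and SD beside the points. Fgb, Plin2, Cldn3 and Eif4ebp1 rise less with PCN, the next genes fall less, and Slc13a1 and Aqp2 are higher after cisplatin in the PCN-treated groups.

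Slc13a1 and Aqp2, which rose with cisplatin under PCN, did not pass without it. Slc13a1 was at 24.2, 29.9 and 30.5 FPKM in control and at 24.9, 39.6 and 16.2 after cisplatin alone, a change of -0.15 ± 0.29. Aqp2 was at 275, 342 and 369 FPKM in control and at 380, 288 and 259 after cisplatin alone, a change of -0.10 ± 0.17. The differences of 1.39 ± 0.41 and 1.08 ± 0.23 between the effects missed the threshold (limma, adjusted p = 0.134 and 0.102). The differences also missed it for Havcr1, Lcn2 and Slc34a1: the value was -1.61 ± 1.08 for Havcr1 (adjusted p = 0.431), -0.66 ± 0.29 for Lcn2 (adjusted p = 0.249) and 1.87 ± 0.51 for Slc34a1 (adjusted p = 0.121), all by limma. A p above the threshold does not show that the effects were equal.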

How the data were processed

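Kidney RNA of 12 libraries was deposited by the authors as FPKM per gene, in 1 table with all libraries as columns. Per the submitters' processing notes, reads were handled with HISAT2 2.0.5, featureCounts 1.5.0-p3, DESeq2 1.16.1 and edgeR 3.18.1, with settings not given; the build named there is mm8, but 52489 of 52636 gene identifiers are in GENCODE M21 for GRCm38, 95.2% with the same coordinates. Groups came from the library titles. FPKM times gene length gave whole multiples of 1 step in each library (all nonzero values within 0.001 reads), from which reads were recovered for depth and for limma-voom only.

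The main test was limma 3.58.1 (R 4.3.3), fitted to log2(FPKM + 1) with its variance prior following intensity, in the 6 libraries compared, with Benjamini-Hochberg adjustment over all 12821 genes. The difference between cisplatin effects used all 12 libraries and 13540 genes, and the change without PCN comes from that fit. The pseudocount of 1 understates changes of low genes. Of genes under the minimum in all PCN libraries, 237 reached it in all cisplatin+PCN libraries, and 258 the other way round. The former had to be higher to be tested, so list counts that include them are not support for the lists. With 3 libraries a group, exact permutation tests have a smallest p of 0.1 and were not run. The procedure was tested on simulated data of 12821 genes. Changes of 1.5-, 2- and 4-fold were recovered in 52.2%, 85.1% and 98.5% of cases by the 6-library test, with 19 false calls. The difference test recovered 35.8%, 85.1% and 95.5%, with 23 false calls. The simulated sets held 67, 67 and 66 changed genes of each size, so the share of false calls among the 15 differences cannot be read from them. In both tests the false calls were a larger share of the simulated calls than the threshold of 0.05. Each simulated gene was drawn independently with the SD of its group, so no shift of a whole library was simulated. Far fewer genes were changed than the 46.7% that passed in the data. Replicates differed by more than sampling noise.

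Named genes were the 12 largest changes in each direction among protein-coding genes with groups that do not overlap, up to 3 members per list and direction, a fixed panel, the 6 largest differences in each direction, and the fibrinogen and metallothionein genes. Other genes (such as Kap, Miox, Clu, Vim, Vcam1, Stat3, Phlda3, Mdm2, Slc12a1, Nphs1, Col1a1, Nqo1, Fkbp5, Hspa5 and Hnf4a) were picked after their values were seen, as were Acot11, Amt, Kcnj10 and Rhcg. The members and lists were chosen with earlier results of these data known, so lists are given as counts and medians with no test. Every list count is to be read beside the 23.3% of all genes tested that passed in each direction. Promoters came from RefSeq (GRCm38.p6). Alternatives were other pseudocounts and filters, 3 rescalings, array weights, a replicate block, limma-voom, a fit to all libraries and each library left out. Some genes that the rule names are left out of the text.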

Additional observations from a re-analysis of the deposited data

Results flagged for a closer look

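For 15 genes the cisplatin effect with PCN differed from that without PCN by the test of the difference itself (limma on 12 libraries, adjusted p under 0.05). The log2 differences, with PCN minus without, were -1.63 for Fgb, -1.39 for Pi15, -1.32 for Plin2, -1.10 for Eif4ebp1 and -1.07 for Cldn3, all genes raised by cisplatin without PCN. They were 0.73 for Kcnj10, 0.89 for Amt, 0.93 for Acot11, 1.07 for Rhcg, 1.13 for Slc4a1, 1.23 for Slc13a2, 1.33 for Arhgef19, 1.72 for Nat8f1, 1.77 for Tmem52b and 1.78 for Nat8f6, all genes lowered by cisplatin without PCN, of which Arhgef19, Amt and Kcnj10 did not pass with PCN (adjusted p = 0.201, 0.175 and 0.0821). Pi15, Plin2, Eif4ebp1, Cldn3, Acot11, Slc13a2, Nat8f1 and Nat8f6 passed under every alternative that tested them, each library left out included.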

How the results depend on the processing

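For the cisplatin effect under PCN, counts of called genes stayed within 1.5 times of 5984 under the alternatives not named here. With genes at a mean FPKM of at least 5, where 7420 genes were tested, 3887 passed (1941 higher, 1946 lower). Array weights, whose estimation stopped before it converged, called 8955 genes (4421 higher, 4534 lower), the most of any alternative. Leaving out single libraries gave 4346 to 6812 calls. For the difference between cisplatin effects, a mean FPKM of at least 5 gave 30 calls (17 higher, 13 lower), rescaling without the 50 highest and mitochondrially encoded genes gave 17 higher, limma-voom 68 (61 higher), and array weights 4315 (2154 higher, 2161 lower). Leaving out single libraries gave 9 to 1066 calls, 4 to 614 of them higher and 5 to 452 lower. The cause of these shifts was not tested. The correlation of both effects stayed between 0.914 and 0.95. Replicate numbers are shared by the groups only as numbers: same-numbered deviations of PCN and cisplatin+PCN libraries correlated at -0.0325, -0.0783 and -0.0359. A fit with the replicate number as a block called 4886 genes (2461 higher, 2425 lower), 4792 of them among the 5984, and 14 differences (8 higher, 6 lower). Of 4605 recomputed values of named genes, 4319 kept their side of the threshold, 260 lost it and 26 gained it. Of those called in the main fit 0 reversed in sign. Gains could differ in sign from the main fit: mt-Co1, lower there without passing, was called higher under quantile normalization (0.31, limma, adjusted p = 0.00713). Of 1564 recomputed list counts, 1385 stayed within 1.5 times. Depth limits low genes: an FPKM of 1 is about 20 reads per kilobase.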
